A study of Mus musculus with 8 samples.

Results

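The 10 genes described here act in bone morphogenetic protein (BMP) and activin signalling, and were read in mouse uterine stromal cells out of 23420 gene symbols counted. They were taken by symbol from a list of 10. The list holds the BMP ligand genes Bmp2, Bmp4 and Bmp7, the activin subunit genes Inhba and Inhbb, the antagonist genes Fst (follistatin) and Grem1 (gremlin 1), and the receptor genes Bmpr1a, Bmpr2 and Acvr2a. All 10 were present in the tables, and 9 passed the filter on low counts. Grem1 did not pass and is described from its reads. The study compared 4 libraries labelled Erbb3f/f with 4 labelled Erbb3d/d, all from day 3. By common mouse notation, f stands for a loxP-flanked allele and d for its Cre-deleted form, which the labels do not spell out. The labels give no Cre line, no age, no event from which day 3 is counted, and no statement on whether a library is 1 animal or a pool. The p-values therefore measure only the spread between these libraries, which may be technical.

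BMPs and activins are secreted dimers of the transforming growth factor beta superfamily. They bring type I and type II receptors together at the cell surface, and the type I receptor then phosphorylates SMAD proteins: SMAD1, SMAD5 and SMAD9 for most BMPs, SMAD2 and SMAD3 for activins. Follistatin binds activins very tightly and some BMPs less tightly, while gremlin 1, noggin and chordin bind BMPs and keep them from their receptors. In the mouse uterus, BMP2 made by stromal cells is needed for decidualization, and conditional loss of Bmp7, Bmpr2, Acvr2a or Fst impairs implantation or the pregnancy that follows.

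Reads in genes ranged from 8578575 to 12854367 per library. Erbb3, the gene named in the labels, had 7.40 to 12.3 CPM (read counts scaled to library size) in the libraries labelled Erbb3f/f and 7.37 to 17.6 CPM in those labelled Erbb3d/d. Erbb3 had a log2 fold change of 0.53 (SE 0.28; adjusted p = 0.485, edgeR), so it was not lower where the label names a deletion. Counts over a whole gene do not separate a deleted exon from the rest. Genotypes are for that reason given as labelled, and each direction follows the labels only. The labelled cell type was checked on 10 stromal markers, none of them at 0, whose summed level was 11190 to 14320 CPM in Erbb3f/f and 8317 to 12470 CPM in Erbb3d/d. Of these 10, 8 had a lower and 2 a higher estimate in Erbb3d/d. Markers of other cell types were also read. The 12 epithelial markers summed to 922 to 1473 CPM in Erbb3f/f and 1402 to 2269 CPM in Erbb3d/d, with 10 of 12 higher. The 10 smooth muscle markers summed to 1825 to 3024 CPM and 2924 to 6102 CPM, with 9 of 10 higher. Endothelial markers (9 of 10 higher) summed to 247 to 505 CPM and 257 to 533 CPM, and immune markers (4 of 9 higher) to 1196 to 2815 CPM and 1574 to 2046 CPM. No marker found in the tables was at 0 over the 8 libraries. Values by library are listed in the order of replicates 1 to 4 throughout. In bulk RNA of this kind, fewer cells of a type and less RNA per cell cannot be told apart.

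Upstream sequence is shown for the activin subunit genes and for Grem1, because the activin subunit genes had unlike levels and fold changes and Grem1 was the scarcest listed gene. RefSeq windows on GRCm38.p6 matched 7 of the 10 genes, and there was no entry for Bmp2, Bmp7 or Fst. Each window is the 250 bases before the annotated start, read 5′ to 3′ on the gene's strand. Capitals mark matches, on either strand, to any of TATAAA, TGACGTCA (cAMP response element), AGGTCA (nuclear receptor half-site), TGTTCT (steroid receptor half-site), GGCGCC (a GC-rich SMAD element) and GTCTAGAC (SMAD box palindrome).
Inhba, plus strand, chr13:16011601-16011850: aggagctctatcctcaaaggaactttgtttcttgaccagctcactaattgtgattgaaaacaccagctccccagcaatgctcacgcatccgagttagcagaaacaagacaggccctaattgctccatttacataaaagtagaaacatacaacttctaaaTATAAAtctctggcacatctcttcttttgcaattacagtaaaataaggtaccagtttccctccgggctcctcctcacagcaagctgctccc
Inhbb, minus strand, chr1:119422249-119422498: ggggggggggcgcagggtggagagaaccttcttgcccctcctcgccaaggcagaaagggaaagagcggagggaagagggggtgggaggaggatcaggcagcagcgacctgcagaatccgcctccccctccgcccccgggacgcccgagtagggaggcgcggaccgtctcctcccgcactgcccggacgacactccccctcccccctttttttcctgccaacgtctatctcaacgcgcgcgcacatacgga
Grem1, minus strand, chr2:113758649-113758898: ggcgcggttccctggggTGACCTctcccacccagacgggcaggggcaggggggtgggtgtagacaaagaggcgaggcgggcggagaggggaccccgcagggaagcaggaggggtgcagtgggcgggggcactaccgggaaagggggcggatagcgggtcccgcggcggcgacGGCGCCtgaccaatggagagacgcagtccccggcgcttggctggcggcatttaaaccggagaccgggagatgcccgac
The Inhba window had 43.2% G and C with 3 CpG dinucleotides, and held TATAAA 91 to 86 bases upstream. The Inhbb window had 68.0% G and C with 21 CpG dinucleotides and matched none of these letters. In the Grem1 window, with 72.0% G and C and 24 CpG dinucleotides, the reverse complement of AGGTCA lay 233 to 228 bases upstream. GGCGCC lay there 78 to 73 bases upstream. Over all 32851 windows of this length the median was 52.4% G and C with 6 CpG dinucleotides. TATAAA was found in 12.4% of them, AGGTCA in 14.0%, TGTTCT in 16.1%, GGCGCC in 9.59%, TGACGTCA in 1.55% and GTCTAGAC in 0.167%. The 2 activin subunit genes have upstream windows of unlike composition, and a link of composition to level or label was not tested. These matches describe letters, and no binding was measured.

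Among the listed genes, Inhbb and Bmp2 had more reads, and Fst fewer, in the libraries labelled Erbb3d/d, while the receptors differed little. With all 8 libraries, edgeR's quasi-likelihood test called 0% of the 14598 genes tested at the adjusted threshold of 0.05. The listed genes are therefore described by their values, with none called over all genes. At an unadjusted p of 0.05, 3 of the 9 tested genes were higher in Erbb3d/d (Bmp2, Bmp4 and Inhbb), against 6.64% of all genes. One was lower (Fst), against 4.97% of all genes, and the 4 together stand against 11.6% in either direction. The libraries of the labels did not overlap for Bmp2, which was higher (2.56% of all genes), or for Fst, which was lower (2.48% of all genes). The median log2 fold change was 0.09 over the 9 genes and -0.01 over all tested genes. With the epithelial marker mean as a covariate, 1 of the 9 was higher and 1 lower at an unadjusted p of 0.05, where 3.34% of all genes passed in either direction. The genes were listed with earlier results of these data known, so these shares are a description.

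**Figure D1:**
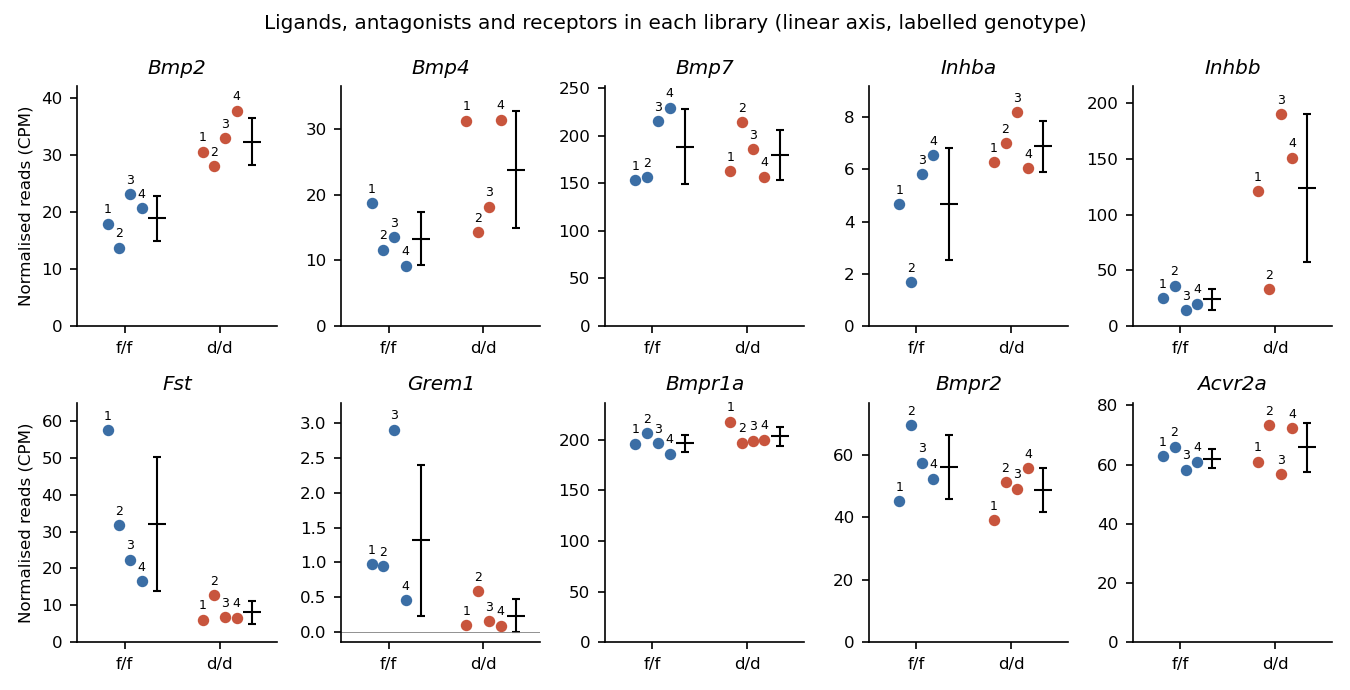
Normalised reads (CPM, linear axis from 0) of the 10 genes in each library, blue for the label Erbb3f/f and red for Erbb3d/d. Numbers are replicates, and the bar beside each group is the mean ± SD (n = 4). Bmp2 and Fst separate the labels, Inhbb does so except for Erbb3d/d replicate 2, and the receptor genes overlap.

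The BMP ligands were taken first. Bmp2, on chromosome 2 at 133552159 to 133562885 (GRCm38, 3 merged exons), encodes the ligand required for decidualization. The Erbb3f/f libraries had 17.9, 13.7, 23.1 and 20.6 CPM, from 184, 131, 294 and 182 reads. The Erbb3d/d libraries had 30.6, 28.0, 32.9 and 37.7 CPM, from 311, 240, 417 and 430 reads. All 4 libraries labelled Erbb3d/d lay above all 4 labelled Erbb3f/f, with Erbb3d/d replicate 2 the closest to them. Means were 18.8 ± 4.01 CPM and 32.3 ± 4.13 CPM for Erbb3f/f and Erbb3d/d (SD, n = 4). The log2 fold change was 0.78 (SE 0.17, 95% interval 0.40 to 1.16; adjusted p = 0.195, edgeR). Over the 70 possible assignments of libraries to labels, an exact permutation test (two-sided) gave p = 0.0286, its lower limit.

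Bmp4, on chromosome 14 at 46383520 to 46390669, encodes a close relative of BMP2. It had 18.7, 11.6, 13.5 and 9.16 CPM in Erbb3f/f. In Erbb3d/d it had 31.2, 14.2, 18.1 and 31.4 CPM in the same order. Erbb3d/d replicates 1 and 4 were high, and replicates 2 and 3 lay within the range of the other label. Its log2 fold change was 0.84 (SE 0.30, 95% interval 0.18 to 1.498; adjusted p = 0.337 in edgeR's test), and the exact permutation test gave p = 0.0857. Once the smooth muscle marker mean entered as a covariate, it was 0.28 (SE 0.36). Erbb3d/d replicates 1 and 4, which had the 2 highest Bmp4 levels, had smooth muscle sums of 6102 and 3755 CPM. The part of smooth muscle RNA in the difference was not tested beyond these values.

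Bmp7, on chromosome 2 at 172868012 to 172940321, had the highest level per exon length of the 5 listed ligand genes. Its levels were 153, 157, 215 and 230 CPM in Erbb3f/f and 162, 214, 186 and 157 CPM in Erbb3d/d. The Erbb3d/d libraries all lay within the range of the Erbb3f/f libraries. Bmp7 had a log2 fold change of -0.07 (SE 0.15; adjusted p = 0.893, edgeR), and its 95% interval ran from -0.41 to 0.27. The sign turned with the covariate used and with the library left out.

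The activin subunits come next. A dimer of the product of Inhbb is activin B, and a dimer of the product of Inhba is activin A. Inhbb, on chromosome 1 at 119415465 to 119422248 with 2 merged exons, had 25.1, 36.0, 14.1 and 19.9 CPM in Erbb3f/f, from 258, 344, 179 and 176 reads. In Erbb3d/d it had 121, 33.2, 190 and 151 CPM, from 1234, 285, 2417 and 1725 reads. The libraries of Erbb3d/d replicates 1, 3 and 4 were far above every other library, and replicate 2 lay inside the Erbb3f/f range. Means were 23.8 ± 9.33 CPM and 124 ± 66.8 CPM for Erbb3f/f and Erbb3d/d (SD, n = 4). The log2 fold change of 2.39 (SE 0.50, 95% interval 1.26 to 3.52) was the largest of the listed genes tested, at an edgeR adjusted p of 0.203. The exact permutation test gave p = 0.0571.

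Epithelial markers moved with Inhbb, whose log2 fold change was 1.43 with their mean as a covariate (SE 0.67, adjusted p = 0.999 in edgeR's test). That mean did not overlap between the labels, so the fit separates it poorly from the label. The 2 libraries highest in Inhbb, Erbb3d/d replicates 3 and 4, were also the highest in summed epithelial markers, at 2221 and 2269 CPM. Epithelial sums were 1402, 1448 and 1473 CPM in Erbb3d/d replicates 1 and 2 and Erbb3f/f replicate 4, with Inhbb at 121, 33.2 and 19.9 CPM. Erbb3d/d replicate 1 also had the highest smooth muscle sum, 6102 CPM. The part of epithelial or smooth muscle RNA in the difference was not tested beyond these values.

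Inhba, on chromosome 13 at 16011851 to 16031621, was low. It had 4.67, 1.68, 5.81 and 6.56 CPM in Erbb3f/f, from 48, 16, 74 and 58 reads, and 6.29, 6.999, 8.19 and 6.05 CPM in Erbb3d/d, from 64, 60, 104 and 69 reads. Erbb3f/f replicate 2 was the lowest library, and the other 3 of that label lay close to the Erbb3d/d libraries. The log2 fold change was 0.55 (SE 0.36, 95% interval -0.24 to 1.34; adjusted p = 0.572 in edgeR's test). It was 0.29 without Erbb3f/f replicate 2 and 1.04 with the smooth muscle marker mean as a covariate.

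Compared per kilobase of exon, the 5 ligand genes together had 56.7 to 72.7 CPM per kb in Erbb3f/f and 76.5 to 110 CPM per kb in Erbb3d/d. Bmp7 made up 65.6% to 78.6% of that sum in Erbb3f/f. In Erbb3d/d its share was 43.8%, 69.8%, 42.2% and 38.9% in replicates 1 to 4. Inhbb made up 10.2%, 14.9%, 4.71% and 6.43% in Erbb3f/f, and 30.8%, 10.2%, 40.8% and 35.5% in Erbb3d/d. The 3 BMP genes summed to 48.0 to 67.0 CPM per kb in Erbb3f/f and 62.9 to 67.5 CPM per kb in Erbb3d/d, so most of the added ligand RNA was Inhbb. Erbb3d/d replicate 2 had the make-up of the other label.

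**Figure D2:**
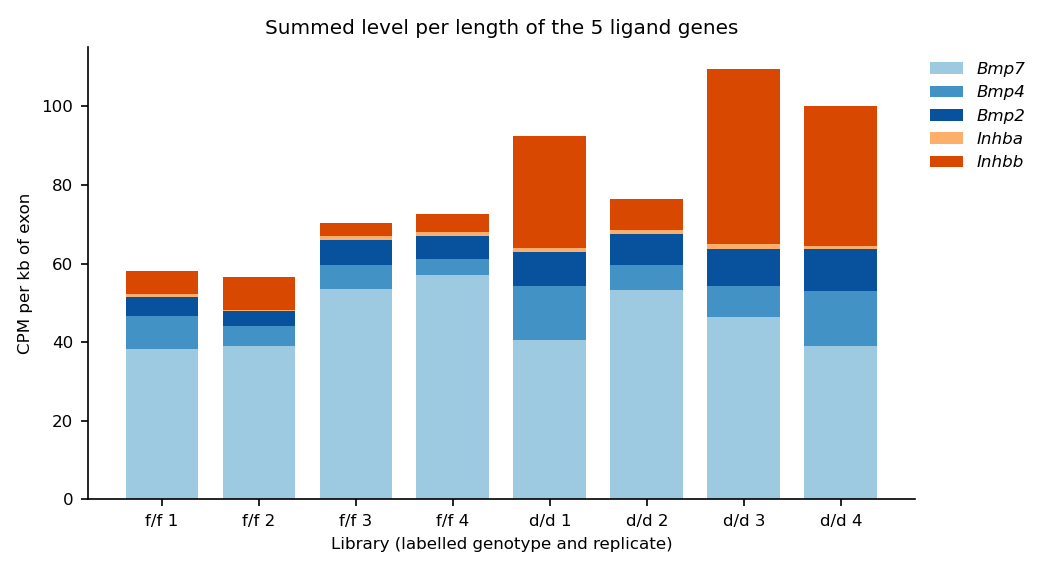
Level per exon length (CPM per kb, stacked bars from 0) of the 5 ligand genes in each library. Inhbb takes 30.8% to 40.8% of the bar in Erbb3d/d replicates 1, 3 and 4, and at most 14.9% in every other library.

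Fst and Grem1, the 2 listed antagonists, had lower means in Erbb3d/d. Fst binds activins. The gene, on chromosome 13 at 114452290 to 114458951 with 3 merged exons, had 57.5, 31.6, 22.4 and 16.5 CPM in Erbb3f/f, from 590, 302, 285 and 146 reads. In Erbb3d/d it had 6.19, 12.8, 6.86 and 6.67 CPM, from 63, 110, 87 and 76 reads. Every library labelled Erbb3d/d was below every library labelled Erbb3f/f, and the closest were Erbb3d/d replicate 2 and Erbb3f/f replicate 4. The Erbb3f/f libraries themselves spread widely, from 16.5 to 57.5 CPM. Means were 32.0 ± 18.1 and 8.14 ± 3.14 CPM (SD, n = 4). For Fst the log2 fold change was -1.99 (SE 0.41, 95% interval -2.90 to -1.07; adjusted p = 0.188, edgeR), and the exact permutation p was 0.0286. It was -1.53 without Erbb3f/f replicate 1 and -2.28 without Erbb3d/d replicate 2, the 2 ends of the range over left-out libraries. With the epithelial marker mean as a covariate it was -1.92 (SE 0.62, adjusted p = 0.999 in edgeR's test). With the smooth muscle mean it was -2.28 (SE 0.52, adjusted p = 0.420 in edgeR's test). The epithelial mean did not overlap between the labels, so that fit separates it poorly from the label.

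Grem1, on chromosome 2 at 113746164 to 113758646, encodes a secreted protein that binds BMP2, BMP4 and BMP7. It had 10, 9, 37 and 4 reads in Erbb3f/f and 1, 5, 2 and 1 reads in Erbb3d/d. In CPM that is 0.974, 0.943, 2.91 and 0.452 against 0.0983, 0.583, 0.158 and 0.0877. Erbb3f/f replicate 3 held 37 of the 60 reads of its label, and Erbb3f/f replicate 4 lay below Erbb3d/d replicate 2. The exact permutation test gave p = 0.0571. In an edgeR fit with no filter beyond 1 read the log2 fold change was -2.54 (SE 0.83, adjusted p = 0.340), and DESeq2 gave -2.58 (SE 0.91, adjusted p = 0.119). These counts are too low to rank the libraries within a label.

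The balance of antagonist and ligands was read as a log2 ratio in each library, with 0.5 CPM added to each gene. It is a score over listed genes, so it has no p-value. For Fst against the mean of Inhba and Inhbb, the log2 ratio was 2.33, 1.85, 1.25 and 0.50 in Erbb3f/f. It was -2.10, -0.26, -2.47 and -2.14 in Erbb3d/d. The labels did not overlap, and Erbb3d/d replicate 2 was the nearest to the other label. Fst alone was lower, and the mean of Inhba and Inhbb higher, in every Erbb3d/d library than in any Erbb3f/f library. The ratio therefore had to separate the labels, and that separation adds nothing to Fst and the subunits. The mean ratios differed by -3.23. Against Inhbb alone the difference was -4.00, and against Inhba alone -2.45. Genes differ in exon length, so the place of 0 carries no meaning of its own and only differences between libraries do.

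For Grem1 against the mean of Bmp2, Bmp4 and Bmp7, the log2 ratio was -4.69, -4.38, -3.60 and -5.24 in Erbb3f/f and -6.51, -5.37, -6.21 and -6.62 in Erbb3d/d. The lowest Erbb3f/f library, at -5.24, lay close to the highest Erbb3d/d library, at -5.37. The means differed by -1.70, and by -0.99 with 2 CPM added in place of 0.5, since Grem1 was near or below the added amount. With any 1 library left out the difference was between -1.97 and -1.41. Fst against Bmp2, the pair of listed genes that each separated the labels, gave -0.31 to 1.65 in Erbb3f/f and -2.42 to -1.10 in Erbb3d/d. Because Fst was lower and Bmp2 higher in every Erbb3d/d library, this ratio had to separate the labels. It adds nothing to the 2 single genes.

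**Figure D3:**
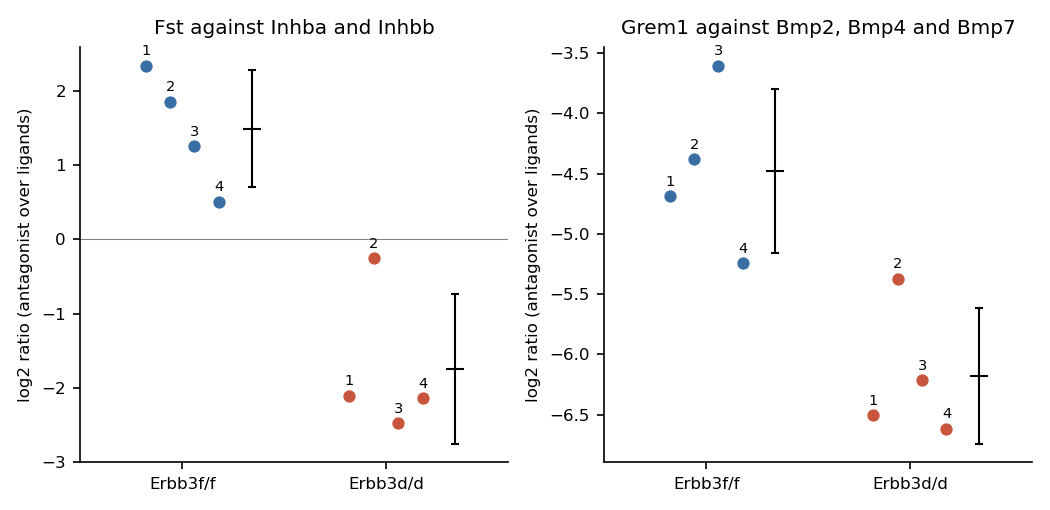
Log2 ratio of each antagonist to its ligands in each library, numbered by replicate, with mean ± SD (n = 4) beside each label. The Fst ratio is 0.50 to 2.33 in Erbb3f/f and -2.47 to -0.26 in Erbb3d/d, and the Grem1 ratio is -5.24 to -3.60 and -6.62 to -5.37. Fst alone already separates the labels.

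The receptors showed small differences with narrow intervals. Bmpr1a, on chromosome 14 at 34410734 to 34503341, encodes a type I BMP receptor, and had 196, 207, 197 and 186 CPM in Erbb3f/f and 218, 197, 199 and 200 CPM in Erbb3d/d. Bmpr1a had a log2 fold change of 0.05 (SE 0.08, 95% interval -0.12 to 0.22; adjusted p = 0.830, edgeR). Bmpr2, on chromosome 1 at 59763400 to 59879014, encodes the type II BMP receptor. It had 45.1, 69.5, 57.5 and 52.4 CPM in Erbb3f/f and 39.0, 51.3, 49.2 and 55.7 CPM in Erbb3d/d, a log2 fold change of -0.20 (SE 0.15, 95% interval -0.53 to 0.13; adjusted p = 0.631, edgeR). Acvr2a, on chromosome 2 at 48814109 to 48903269, encodes a type II receptor for activins and some BMPs. It had 62.9, 66.1, 58.2 and 60.9 CPM in Erbb3f/f and 61.0, 73.4, 56.8 and 72.3 CPM in Erbb3d/d, a log2 fold change of 0.09 (SE 0.11, 95% interval -0.15 to 0.32; adjusted p = 0.792, edgeR). In all 3 the labels overlapped, and a doubling or a halving lay outside each interval.

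Per kilobase of exon, the order in Erbb3f/f was Bmp7 (47.0 ± 9.80), Bmpr1a (30.9 ± 1.30), Acvr2a (10.9 ± 0.583), Fst (6.97 ± 3.94), Bmp4 (5.89 ± 1.80), Inhbb (5.59 ± 2.19), Bmp2 (5.30 ± 1.13), Bmpr2 (3.12 ± 0.572), Inhba (0.733 ± 0.336) and Grem1 (0.318 ± 0.262 CPM per kb; SD, n = 4). From Fst to Bmp2 the neighbours lay within their spread. In Erbb3d/d the order from the top was Bmp7 (44.8 ± 6.53), Bmpr1a (32.0 ± 1.499), Inhbb (29.2 ± 15.7), Acvr2a (11.6 ± 1.45), Bmp4 (10.6 ± 3.96), Bmp2 (9.08 ± 1.16), Bmpr2 (2.71 ± 0.393), Fst (1.77 ± 0.685), Inhba (1.077 ± 0.151) and Grem1 (0.0559 ± 0.0570 CPM per kb). There Inhbb spread widely enough to reach Bmpr1a, and Acvr2a, Bmp4 and Bmp2 lay within their spread. The place of Fst in Erbb3f/f rests on replicate 1, at 12.5 CPM per kb. In replicate 4 it had 3.60 CPM per kb, below Bmp4 (4.07), Inhbb (4.68) and Bmp2 (5.79). Lengths are unions of all annotated exons, which are long for Bmpr2 (17983 bp), and a gene that uses short transcripts is understated.

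The genes whose profile was most like that of Fst over the 8 libraries, among 12460 others with a mean of at least 5 CPM, were Ubap2l (Pearson r = 0.98, Spearman rho = 0.93), Sdha (0.98 and 0.91) and Crybg3 (0.97 and 0.91). Without the 2 libraries farthest from the median of Fst, r was 0.98 for each of these 3 genes. Their levels differed far less than that of Fst, with means of 146 and 128 CPM for Ubap2l in Erbb3f/f and Erbb3d/d. Most like Bmp2, the ligand gene with the smallest p-value, were Thsd4 (r = 0.97, rho = 0.98) and Mpdu1 (0.97 and 0.93), with r of 0.97 and 0.90 without the 2 farthest libraries. For Thsd4, means were 26.5 and 49.4 CPM in the same order. These are the highest of many correlations over 8 libraries that share their depth and scaling, so they are given as a description with no test.

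The rest of the pathway was read from lists of 69 further genes. Of 21 other ligand genes, 11 were tested, and none had an unadjusted p under 0.05 (5 higher, 6 lower in Erbb3d/d). Gdf7, a BMP family ligand gene named after its values were seen, had 387, 423, 468 and 414 CPM in Erbb3f/f and 246, 479, 209 and 184 CPM in Erbb3d/d. Replicate 2 was the highest of all 8 libraries, and the other Erbb3d/d libraries were below every Erbb3f/f library. The fitted log2 fold change of Gdf7 was -0.60 (SE 0.27; adjusted p = 0.441, edgeR), and without Erbb3d/d replicate 2 it was -0.98 (adjusted p = 0.0114, edgeR). Per exon length it stood above Bmp7, at 297 ± 23.5 CPM per kb in Erbb3f/f and 197 ± 95.1 CPM per kb in Erbb3d/d (SD, n = 4). Of 10 other receptors and coreceptors, 9 were tested and none had an unadjusted p under 0.05 (6 higher, 3 lower). Of 14 SMADs and their regulators, 9 were higher and 5 lower. Only Smad6 had an unadjusted p under 0.05, where 11.6% of all genes did in either direction. Smad6, an inhibitory SMAD that BMP signalling itself induces, had 22.6 to 26.5 CPM in Erbb3f/f and 29.4 to 42.5 CPM in Erbb3d/d. Smad6 was thus higher without overlap, as were 2.56% of all genes. Its log2 fold change was 0.50 (SE 0.14, adjusted p = 0.279 in edgeR's test). With the epithelial or the smooth muscle marker mean as a covariate, Smad6 had 0.33 (SE 0.20) or 0.61 (SE 0.19).

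Other antagonists differed in both directions. Of 17 listed, 14 were tested, with 7 higher and 7 lower in Erbb3d/d and a median log2 fold change of -0.07. At an unadjusted p of 0.05, 2 were higher and 3 lower, against 6.64% and 4.97% of all genes. With the epithelial marker mean as a covariate, 9 were higher and 5 lower. Of those, 1 and 0 passed that p, where 3.34% of all genes did in either direction. With the smooth muscle mean, 5 were higher and 9 lower, and 1 and 0 passed, against 9.14% of all genes. Chrdl1, a chordin-like antagonist, was lower, with 1.85 to 5.42 CPM in Erbb3f/f and 0.583 to 1.57 CPM in Erbb3d/d (log2 fold change -1.33, SE 0.46; adjusted p = 0.323, edgeR). Chrdl1 was thus lower without overlap, as were 2.48% of all genes. With the smooth muscle marker mean as a covariate its log2 fold change was -0.83, and with the epithelial mean -0.86.

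Nog, Fstl3 and Chrdl2 also passed an unadjusted p of 0.05 and are named after their values were seen. Nog, which encodes noggin, had 116, 81.4, 132 and 134 CPM in Erbb3f/f and 58.5, 115, 30.8 and 50.6 CPM in Erbb3d/d. Replicate 2 of Erbb3d/d was within the range of the other label, and its other 3 libraries were below that range. The log2 fold change of Nog was -0.87 (SE 0.36; adjusted p = 0.410, edgeR), and without Erbb3d/d replicate 2 it was -1.31 (adjusted p = 0.0401, edgeR). Nog had -0.385 (SE 0.44) with the epithelial marker mean as a covariate and -0.64 (SE 0.54) with the smooth muscle mean. Fstl3, a follistatin-like antagonist of activins, had a log2 fold change of -0.43 (SE 0.19), but 1157 of its 2445 bp of exon overlap Prss57 on the other strand, so its reads are uncertain. Chrdl2 had a log2 fold change of 1.30 (SE 0.44). With the epithelial or the smooth muscle mean as a covariate, Fstl3 had -0.115 or -0.37, and Chrdl2 had 0.94 or 0.43.

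Genes that BMP signalling is known to induce were higher as estimated. All 7 of the list (Id1, Id2, Id3, Id4, Atoh8, Msx1 and Msx2) had a positive log2 fold change, with a median of 0.54, where 48.0% of all tested genes were positive and the median was -0.01. Of these, 4 had an unadjusted p under 0.05, against 6.64% of all genes in that direction, and none passed the adjusted threshold in edgeR's test. Id1, Id2 and Id3 did not pass an unadjusted 0.05 and overlapped between the labels. Their log2 fold changes were 0.46, 0.09 and 0.33 (SE 0.27, 0.14 and 0.22). The list was chosen with earlier results of these data known. Id4, an inhibitor of basic helix-loop-helix factors, had 33.1, 36.1, 17.99 and 25.8 CPM in Erbb3f/f and 65.9, 42.6, 41.7 and 55.6 CPM in Erbb3d/d. The labels did not overlap (2.56% of all genes in that direction), and the log2 fold change was 0.87 (SE 0.23; adjusted p = 0.274, edgeR). Msx2, a homeobox gene named after its values were seen, had 6.53 to 19.7 CPM in Erbb3f/f and 22.4 to 64.4 CPM in Erbb3d/d, with a log2 fold change of 1.56 (SE 0.41; adjusted p = 0.279, edgeR).

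Some of these values changed when marker means of other cell types entered as covariates. With the epithelial marker mean as a covariate 6 of the 7 genes were higher, 1 at an unadjusted p under 0.05 (3.34% of all genes in either direction). The median was then 0.51, and Id4 and Msx2 had log2 fold changes of 0.755 and 0.68. That mean did not overlap between the labels, so the fit separates it poorly from the label. With the smooth muscle mean 6 of 7 were higher, again 1 at an unadjusted p under 0.05, where 9.14% of all genes passed in either direction. There the median was 0.25, Id4 had 0.25 and Msx2 had 2.18. Without Erbb3d/d replicate 2 all 7 were higher and the median was 0.60.

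**Figure D4:**
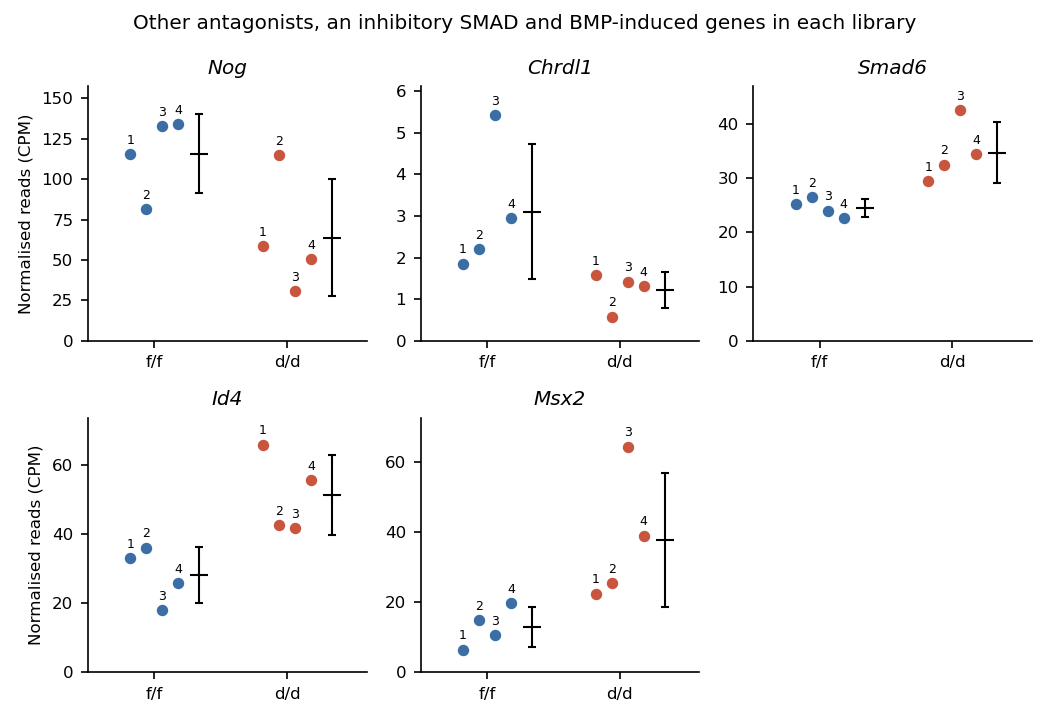
Normalised reads (CPM, linear axis from 0) of 2 further antagonists, the inhibitory SMAD gene Smad6 and 2 BMP-induced genes in each library, with mean ± SD (n = 4) beside each label. Smad6, Id4 and Msx2 are higher in every Erbb3d/d library (2.56% of all genes) and Chrdl1 lower (2.48%). Nog in Erbb3d/d replicate 2 stands at 115 CPM among the Erbb3f/f libraries. Nog and Msx2 were chosen after their values were seen. Of the other antagonists tested, 7 were higher and 7 lower, and Id1, Id2 and Id3, which are not drawn, overlapped between the labels.

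**Figure D5:**
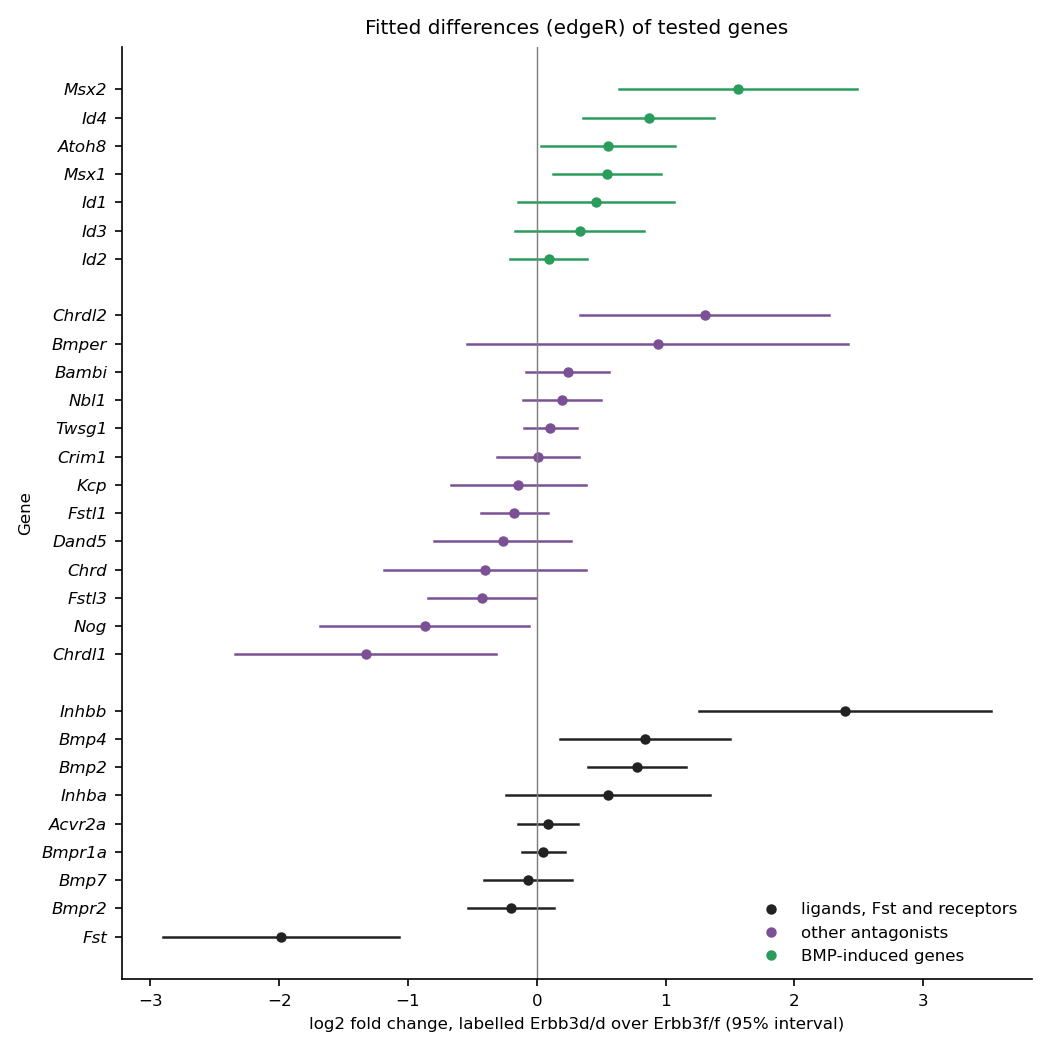
Log2 fold change with 95% interval, labelled Erbb3d/d over Erbb3f/f, for the 9 tested ligand, Fst and receptor genes, other antagonists and 7 BMP-induced genes. Not every tested antagonist is drawn. Of the genes drawn, Inhbb at 2.39 lies farthest to the right and Fst at -1.99 farthest to the left, and the receptor intervals are short and include 0.

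The calls depended on the tool and on 1 library. DESeq2 gave adjusted p-values of 1e-04 for Fst, 0.00392 for Inhbb and 0.00573 for Bmp2, so 3 listed genes were called where 1.78% of all genes were. Without Erbb3d/d replicate 2, edgeR called the same 3 genes, where it called 1.75% of all genes, with adjusted p-values of 0.0395 for Fst, 0.0134 for Inhbb and 0.0475 for Bmp2. DESeq2 also called Id4 (adjusted p = 0.0239) and Msx2 (0.00500) from the lists shown here in detail.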

How the data were processed

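RNA was counted in 8 libraries, 4 per labelled genotype, grouped and numbered by title. The authors deposited raw read counts per gene symbol. The submitters' processing notes name HISAT2, SAMtools, HTSeq and StringTie and the build mm10 or GRCm38, without roles or versions. Per the labels' protocols, poly(A) RNA was sequenced without strand. Reads from overlapping antisense genes thus cannot be told apart, which concerns Bmp4 (89 bp of exon), Fst (115), Bmpr1a (290), Acvr2a (446), Id4 (253) and Fstl3 (1157). The 5 lines that name no gene were left out. Reads in genes were 27.0% to 29.1% of all entries.

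Counts were fitted with edgeR 4.0.16 in R 4.3.3 (filterByExpr, TMM, robust quasi-likelihood test, Benjamini-Hochberg over 14598 genes). The steps were tested on simulated data. CPM are counts per TMM-scaled library size. Ratios and the two-sided exact permutation test used log2(CPM + 0.5). SE is the log2 fold change over the root of F. The 15 alternatives were DESeq2 1.42.0, 2 other scalings, no filter, the replicate block, 2 marker covariates and each library left out. Gene positions and lengths came from GENCODE vM21, and sequences from RefSeq. The genes and lists, and the marker lists (stromal, epithelial, smooth muscle, endothelial and immune; Adgre1 was not matched), were chosen with earlier results of these data known. All listed genes were described. From each pathway list the rule named the gene with the smallest unadjusted p under 0.05 in each direction. Some genes that the rule names are not reported here.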

Additional observations from a re-analysis of the deposited data

Results flagged for a closer look

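Of 34 groups of 4 libraries examined, 5 held a value far from the others, where 1.7 are expected by chance at 1 in 20. Of these, 4 were in Erbb3d/d replicate 2. There Fst was 12.8 CPM, against 6.86 in the nearest library of that label. Grem1 was 0.583 CPM, against 0.158, from 5 and 2 reads. The log2 ratio of Fst to the activin subunits was -0.26, against -2.10. This ratio contains Fst, so the groups examined are not independent and the expected number is only a rough guide. The immune markers summed to 1574 CPM, against 2003. The fifth was Bmpr1a in Erbb3d/d replicate 1, at 218 CPM against 200.2. All values of Fst in that label remained below those labelled Erbb3f/f.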

How the results depend on the processing

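Bmp2, Bmp4, Inhba, Inhbb, Fst, Bmpr2 and Acvr2a had the same direction in all 15 alternative fits. Bmp7 turned sign, with a log2 fold change of 0.041 with the epithelial covariate, 0.28 with the smooth muscle covariate and -0.16 to 0.039 over left-out libraries. Bmpr1a had -0.026 with the smooth muscle covariate. No gene was called over all genes in edgeR with 8 libraries (1695 at an unadjusted p under 0.05), against 270 with DESeq2, 52 with the replicate number as a block, and 0 to 259 over left-out libraries, 259 without Erbb3d/d replicate 2. No listed gene was called with the block. Same-numbered libraries deviated together with correlations of 0.24, 0.17, 0.0998 and 0.15, and 2 of 4 libraries labelled Erbb3d/d correlated best with their own number, so the number was not taken as a pairing. The difference in the Grem1 ratio was -0.99 with a pseudocount of 2. Covariate fits leave few residual degrees of freedom. The epithelial marker mean also did not overlap between the labels, so fits with it separate marker level and label poorly. Depth limits Grem1, with 9 reads in the 4 libraries labelled Erbb3d/d.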
